A study of Mus musculus with 5 samples.

Results

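Expression of 42 genes of the lysosome, among them *Gpnmb* and the progranulin gene *Grn*, was compared between control cancer-associated fibroblasts (CAFs) and CAFs overexpressing miR-200. The genes were chosen by name as lysosomal hydrolases, membrane proteins, proton pump genes and transcription factors of the MiT/TFE family, together with *Gpnmb* and *Grn*. The list was drawn up with the difference between the same samples already known, so the values of the list were selected on in part, and they are given below as a description with no test of their own. All 42 genes were found among the 21835 genes of the expression table. All of them also reached 0.5 CPM (a read count scaled so that every sample has the same total) in at least 2 samples, the level required for comparison, as did 12175 genes of the table.

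The lysosome is an acidic organelle in which proteases, glycosidases, sulfatases and lipases break down material delivered by endocytosis and autophagy. A vacuolar proton pump (V-ATPase) acidifies it, and the related factors TFEB, TFE3 and MITF bind E-box motifs in the promoters of many lysosomal genes and activate them. GPNMB is a glycoprotein of late endosomes, lysosomes and melanosomes whose shed ectodomain acts on other cells, and progranulin is a secreted growth factor that is also carried to the lysosome and cut there into granulins. Fibroblasts both use these proteins inside the cell and release some of them, cathepsins included, into the surrounding matrix.

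The samples were 2 libraries of murine lung CAFs carrying a control vector (CAF-vec, genotype given as WT control) and 3 of CAFs transduced by lentivirus with the miR-200a, miR-200b and miR-429 genes (CAF-200). Cells were grown in alpha-MEM with fetal bovine serum and, per the labels, selected with G418, so each library is a pool of transduced cells, and mouse age was not stated. The labels and the methods differ on the lentiviral vector and on the RNA kit, and the methods speak of triplicates, whereas the CAF-vec libraries analysed here number 2. Nothing in the labels says that replicates came from separate cultures, so *p* values measure the spread between these samples, which may be technical.

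The transduced cluster encodes miRNAs with 2 seeds, which are shown because they define what CAF-200 overexpresses. The mature sequences are those of the RefSeq table for GRCm38.p6, with the seed (bases 2 to 8) in capitals, and all lie on the minus strand of chromosome 4.
miR-200a-3p (chr4:156054911-156054932): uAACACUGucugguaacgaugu
miR-200b-3p (chr4:156055685-156055706): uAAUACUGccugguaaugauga
miR-429-3p (chr4:156053916-156053937): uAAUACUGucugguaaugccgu
miR-200b and miR-429 share a seed, and miR-200a has a seed of its own.

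The longest annotated 3′-UTR (GENCODE M21, GRCm38) of each gene was searched for the 7 bases that pair with each seed, CAGTGTT for miR-200a and CAGTATT for miR-200b and miR-429. Of the 42 genes, 7 (16.7%) held at least 1 match, beside 30.3% of the 12060 genes tested that have an annotated 3′-UTR, with a median length of 1012 and 1174 bases. Matches to miR-200b and miR-429 were in 2 of the 42 genes (4.76%, and 15.7% of the genes tested), and matches to miR-200a in 7 (16.7%, and 20.9%). Neither *Gpnmb*, with 1868 bases, nor *Grn*, with 337 bases, held one. The genes with a match were *Tpp1* and *Npc1*, which had both, and *Ctsl*, *Ids*, *Lipa*, *Asah1* and *Mitf*, which had the miR-200a match only. The sites of *Tpp1*, which is among the genes with the lowest fold-changes, are shown with 10 bases on either side, beside that of *Ctsl*, whose groups overlapped (match in capitals, minus strand).
Tpp1, miR-200b and miR-429 (chr7:105744930-105744956): aacaatcataCAGTATTgaaattgtca
Tpp1, miR-200a (chr7:105746116-105746142): atacccttttCAGTGTTtgttttatgg
Ctsl, miR-200a (chr13:64363552-64363578): ctcagttccaCAGTGTTggtcctatca
The median log2 fold-change was -0.19 for the 7 genes with a match and -0.40 for the 35 without. Over all genes tested it was -0.07 with a match and -0.11 without. For the match to miR-200b and miR-429 alone, the median was -1.0 for the 2 genes with it and -0.37 for those without. Over all genes tested these medians were -0.04 and -0.1. A match is a run of letters and does not show that the miRNA binds there.

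*Zeb1*, a known target of miR-200, was 43.5 and 50.8 CPM in CAF-vec and 37.8, 37.5 and 34.1 CPM in CAF-200 (limma, log2 fold-change -0.36 with an adjusted *p* of 0.0504). The CAF-vec pair was further apart than any CAF-200 pair, with an SD of the log2 difference over all genes tested of 0.49 for the CAF-vec pair and 0.192 to 0.204 for the CAF-200 pairs. Over all genes tested, the log2 fold-change had a median of -0.09 and was below 0 for 58.3%. CPM values are relative to the total of each sample, and the number of reads behind them is unknown. Among markers that define other cell types, *Ptprc* was at 0.0404 CPM or less, *Adgre1* was listed at 0 in every sample, *Epcam* was at 0.0594 CPM or less and *Pecam1* at 0.288 CPM or less. Of the 16 macrophage markers, 7 were listed at 0 in all samples, and the list summed to 8.51 to 13.0 CPM in CAF-vec against 13.2 to 13.4 CPM in CAF-200. In that list 3 genes reached the level for testing, *Csf1r* was 4.98 and 2.31 CPM in CAF-vec against 2.29 to 2.39 CPM in CAF-200, *Cd14* was 6.7 and 4.12 CPM against 3.42 to 4.13 CPM, and *Lyz2*, which encodes lysozyme, rose with a log2 fold-change of 1.91 (limma, adjusted *p* = 0.00395). The epithelial list (12 genes) summed to 3.36 to 7.29 and 2.2 to 3.29 CPM. Most of it was *Krt7*, at 7.21 and 3.13 CPM in CAF-vec and 2.94, 2.95 and 1.73 CPM in CAF-200. The endothelial list (10 genes) summed to 79.2 to 95.1 and 86.7 to 94.1 CPM, nearly all of it *Eng*, at 78.2 to 94.6 CPM over the 5 samples. The other endothelial gene tested, *Egfl7*, was 0 and 0.33 CPM in CAF-vec and 1.47, 1.19 and 0.718 CPM in CAF-200 (limma, log2 fold-change 1.31 with an adjusted *p* of 0.027). *Cd14*, *Krt7*, *Eng* and *Egfl7* are named after their values were seen, and the part of these markers in the results was not tested. Of the 12 fibroblast markers, 11 reached the level for testing, *Fap* did not, and 4 rose in CAF-200, with log2 fold-changes of 2.82 for *Lum* (adjusted *p* = 0.000929), 2.75 for *Dcn* (adjusted *p* = 0.000837), 2.63 for *Acta2* (adjusted *p* = 0.00123) and 1.46 for *Thy1* (adjusted *p* = 0.0029, all limma). The fibroblast list summed to 13500 to 17300 CPM in CAF-vec against 11500 to 12400 CPM in CAF-200, and 3 of its genes had all CAF-200 values under both CAF-vec values without being called, with log2 fold-changes of -0.91 for *Col1a1* (adjusted *p* = 0.0982), -0.75 for *Col1a2* (adjusted *p* = 0.112) and -0.25 for *Pdgfrb* (adjusted *p* = 0.0776, all limma). *Col3a1* lay above both CAF-vec values without being called, at 76.9 and 35.9 CPM in CAF-vec and 113.7, 107.5 and 99.95 CPM in CAF-200 (limma, log2 fold-change 1.02 with an adjusted *p* of 0.0542). In bulk RNA, fewer cells of a kind and less RNA per cell cannot be told apart.

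Most of the lysosomal genes had lower values in CAF-200 than in CAF-vec. The log2 fold-change was below 0 for 35 of 42 genes and above 0 for 7, with a median of -0.39 beside -0.09 for all genes tested. All 3 CAF-200 values lay under both CAF-vec values for 30 genes, over both for 4, and overlapped for 8. Among all genes tested, 37.3% were below in this way and 24.3% above. At an adjusted *p* under 0.01 in the fit across all genes (limma), 8 of the 42 were lower and 1 was higher, where 5.57% of all genes were lower and 4.45% higher. With a log2 fold-change beyond 1 required as well, 4 were lower and 1 higher, against 2.35% and 2.37% of all genes. Because the list was drawn up knowing this contrast, nothing is read from these shares. The 8 lower genes were *Gpnmb*, *Grn*, *Tpp1*, *Neu1*, *Idua*, *Ctsa*, *Gaa* and *Npc1*, and the higher gene was *Ctsh*. The number of calls depended on single samples. It was 22 lower and 3 higher without CAF-vec 1, where 16.6% and 13.3% of all genes were called, and 25 lower and 4 higher without CAF-vec 2, where 31.3% and 19.4% of all genes were. In both, the spread comes from CAF-200 alone and the lone CAF-vec sample is taken to vary like them. It was 0 without any of the CAF-200 samples. At an unadjusted *p* under 0.05 (limma), 25 were lower and 2 higher with all samples, beside 27.6% and 17.3% of all genes, and 20, 19 and 18 were lower and 1 higher without CAF-200 1, 2 and 3, beside 21.0%, 19.6% and 19.1% of all genes lower and 12.5%, 12.8% and 12.4% higher.

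**Figure D1:**
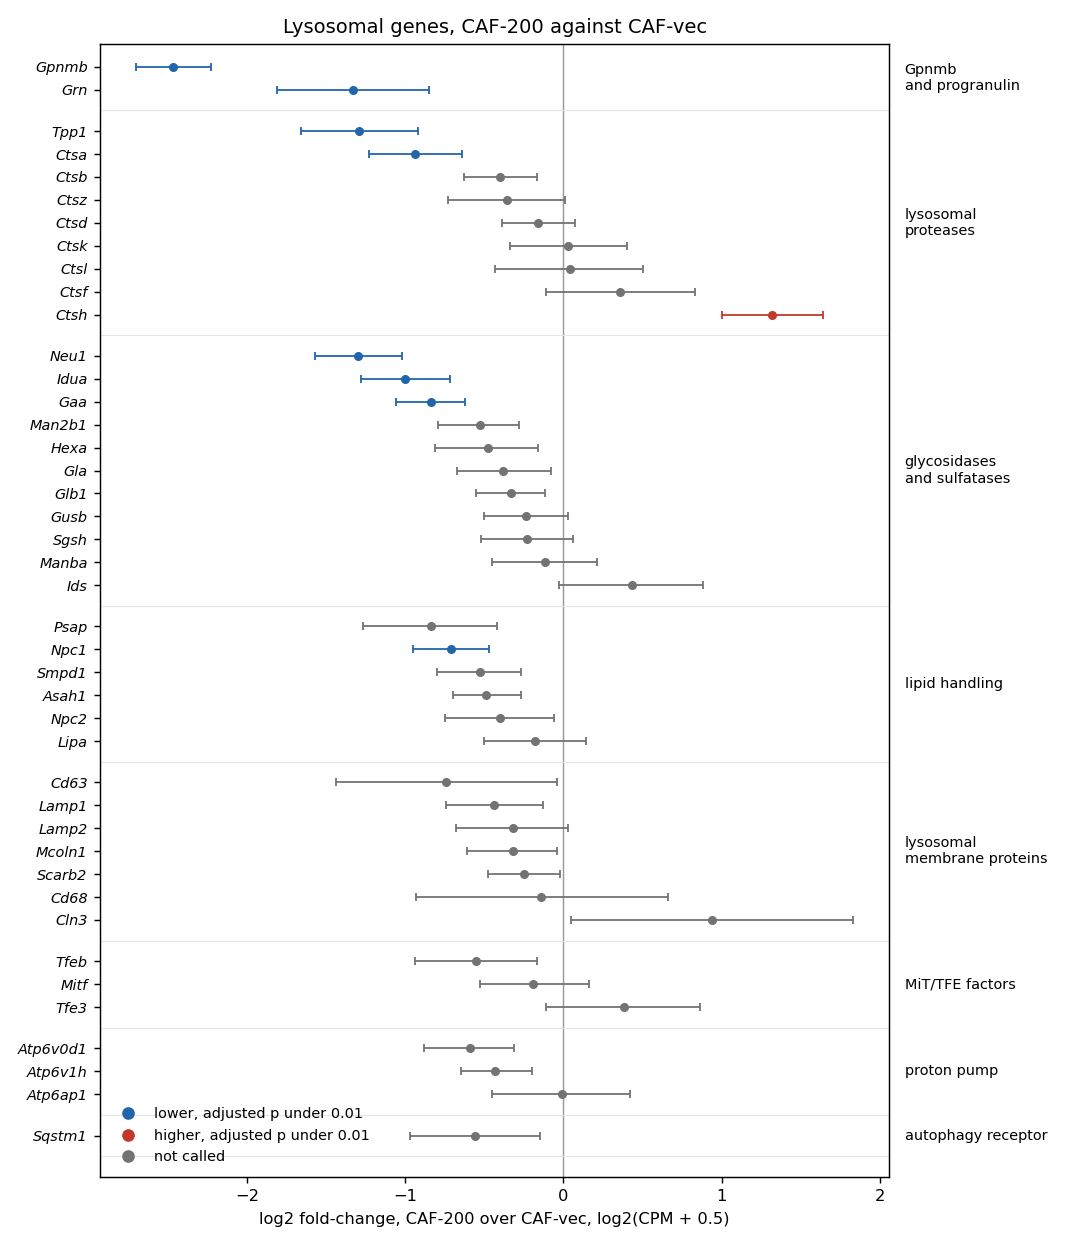
Log2 fold-change of the 42 genes (CAF-200 over CAF-vec on log2(CPM + 0.5), x axis), grouped by role, with 95% confidence intervals from the fit across all genes as bars (n = 2 CAF-vec and 3 CAF-200). Points lie from -2.47 for *Gpnmb* to 1.32 for *Ctsh*, and colours mark the 8 genes called lower and the 1 called higher.

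*Gpnmb* (ENSMUSG00000029816, chr6:49036546-49070929 of GRCm38, plus strand) had the lowest fold-change of the list. It was 196.1 and 205.5 CPM in CAF-vec and 37.3, 37.6 and 33.1 CPM in CAF-200. The values within each group were close and the groups were far apart. The means were 200.8 ± 6.67 CPM (SD, n = 2) and 35.98 ± 2.51 CPM (SD, n = 3), a ratio of CAF-vec over CAF-200 of 5.58, and the log2 fold-change of -2.47 (95% interval -2.70 to -2.23) was the 13th lowest of the 12175 genes tested.

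*Grn* (ENSMUSG00000034708, chr11:102430315-102437048, plus strand) was 551.6 and 360.0 CPM in CAF-vec and 183.9, 186.1 and 162.7 CPM in CAF-200. Every CAF-200 sample was below both CAF-vec samples, which themselves differed by 0.61 on the log2 scale. Its log2 fold-change was -1.33 (95% interval -1.81 to -0.85), and it was -1.02 without CAF-vec 1 and -1.63 without CAF-vec 2. *Grn* lies next to *Fam171a2* on the opposite strand and overlaps it. *Fam171a2* was at most 16.8% of *Grn* in any sample, at 43.9 and 31.7 CPM in CAF-vec and 29.1, 29.8 and 27.4 CPM in CAF-200. *Psap* encodes prosaposin, a partner that binds progranulin and the precursor of the saposins that help lysosomal enzymes reach their lipids. It was 3024 and 2198 CPM in CAF-vec and 1451, 1419 and 1439 CPM in CAF-200 (log2 fold-change -0.84, 95% interval -1.27 to -0.42). *Sort1*, which encodes the sortilin receptor that takes up progranulin and is not one of the 42 genes, was 14.5 and 15.2 CPM in CAF-vec and 5.87, 6.02 and 5.47 CPM in CAF-200. On the log2 scale it fell by 1.29 (adjusted *p* = 0.00252, limma), and its groups were separated by more than the spread within either.

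**Figure D2:**
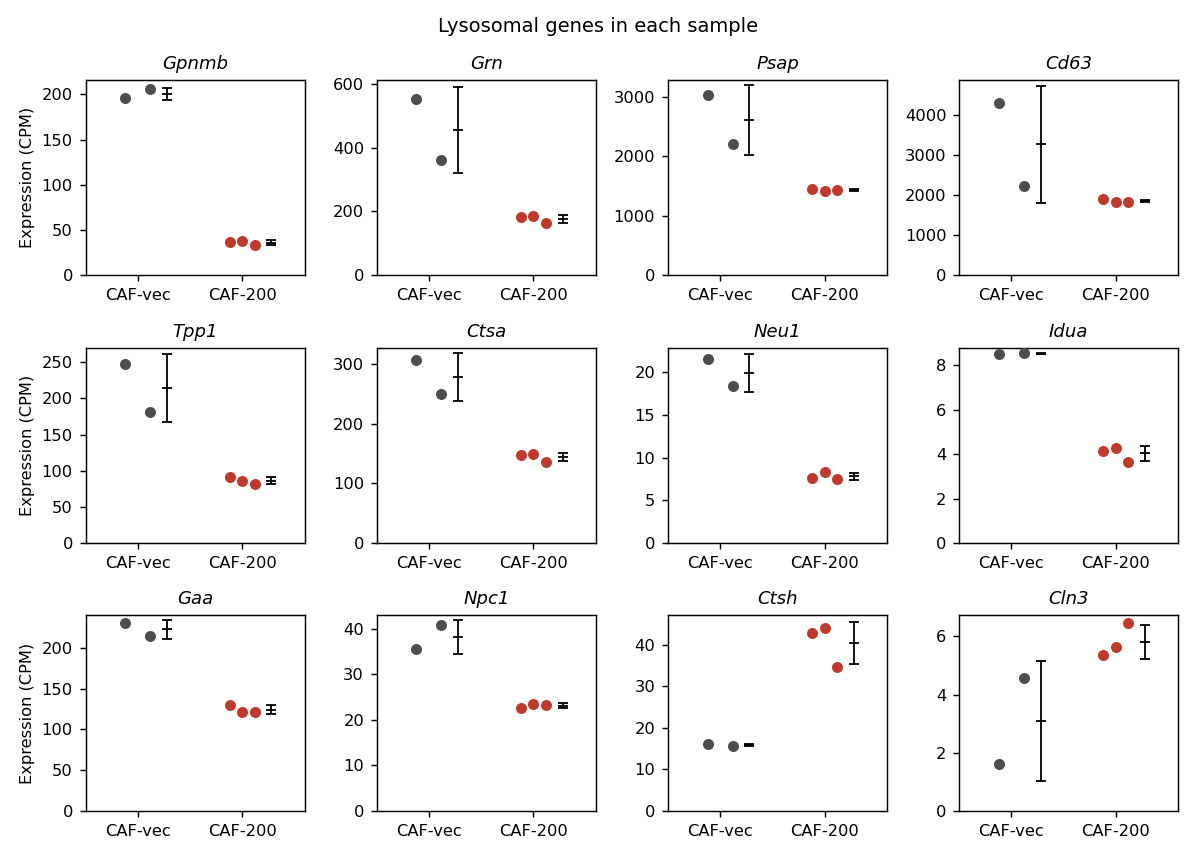
Expression in CPM (y axes from 0) of 12 of the genes in each CAF-vec (grey) and CAF-200 (red) sample, with the mean and SD beside the points. For 10 genes, *Gpnmb* to *Npc1*, all CAF-200 samples lie under both CAF-vec samples, and for *Ctsh* and *Cln3* all lie over both, with CAF-vec samples of *Cd63* at 4299 and 2235 CPM and of *Cln3* at 1.62 and 4.56 CPM far apart.

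Among the proteases, the log2 fold-change was below 0 for 5 of the 9 and above it for 4, with a median of -0.16. All CAF-200 values lay under both CAF-vec values for 5 and over both for 2, beside 37.3% and 24.3% of all genes tested. *Tpp1*, a tripeptidyl peptidase, was 247.4 and 180.8 CPM in CAF-vec and 90.95, 85.5 and 82.1 CPM in CAF-200 (log2 fold-change -1.29, 95% interval -1.66 to -0.92). *Ctsa*, the carboxypeptidase cathepsin A that also protects neuraminidase 1 and beta-galactosidase in a complex, was 306.4 and 249.9 CPM against 147.6, 148.7 and 136.2 CPM (log2 fold-change -0.94, 95% interval -1.23 to -0.64). In both, all CAF-200 samples lay under both CAF-vec samples. *Ctsa* overlaps *Pltp* on the opposite strand, which was at most 31.0% of it in any sample. *Ctsh*, an aminopeptidase of the cathepsin family, went the other way, at 16.0 and 15.7 CPM in CAF-vec and 42.9, 44.0 and 34.5 CPM in CAF-200. Its log2 fold-change was 1.32 (95% interval 1.00 to 1.64), and the groups did not overlap.

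Among the other cathepsins, *Ctsb* was 354.4 and 331.3 CPM in CAF-vec and 253.2, 272.1 and 255.1 CPM in CAF-200 (log2 fold-change -0.40). *Ctsz* was 274.0 and 198.0 CPM against 185.9, 181.1 and 177.4 CPM (log2 fold-change -0.36, and -0.13 without CAF-vec 1 and -0.59 without CAF-vec 2). The endoproteases *Ctsl* and *Ctsk* overlapped between groups. *Ctsl* was 712.3 and 474.0 CPM in CAF-vec and 605.6, 622.4 and 564.8 CPM in CAF-200, so its CAF-200 values fell between the CAF-vec values (log2 fold-change 0.04, and 0.33 without CAF-vec 1 and -0.25 without CAF-vec 2). *Ctsk*, a collagenase, was at 0.8 to 1.01 CPM in all 5 samples. *Ctsf* was 5.64 and 3.56 CPM in CAF-vec and 5.82, 5.75 and 6.17 CPM in CAF-200 (log2 fold-change 0.36, and 0.06 without CAF-vec 2). The aspartic protease *Ctsd* was 411.1 and 393.5 CPM in CAF-vec and 376.2, 352.7 and 352.1 CPM in CAF-200 (log2 fold-change -0.16). It overlaps the annotated gene *Gm49369* on the same strand, to which the table gives 116.0 CPM in CAF-vec 1 but 0.371 in CAF-vec 2 and 0 in all CAF-200 samples, so the division of reads between them is uncertain.

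Of the 11 glycosidases and sulfatases, 3 were called lower and 0 higher, beside 5.57% and 4.45% of all genes tested. The remaining 8 were not called. In all, 10 had a log2 fold-change below 0 and 9 had all CAF-200 values under both CAF-vec values, beside 58.3% and 37.3% of all genes. The median was -0.38. *Neu1*, the sialidase of the complex with *Ctsa*, was 21.5 and 18.4 CPM in CAF-vec and 7.63, 8.26 and 7.5 CPM in CAF-200 (log2 fold-change -1.30, 95% interval -1.57 to -1.02). *Glb1*, the beta-galactosidase of the same complex, differed less, at 22.2 and 23.8 CPM against 18.6, 18.1 and 17.8 CPM (log2 fold-change -0.33). *Glb1* shares its strand with *Tmppe*, which was at most 20.2% of it. *Idua*, which acts on heparan and dermatan sulfate, was 8.51 and 8.54 CPM in CAF-vec and 4.16, 4.28 and 3.65 CPM in CAF-200 (log2 fold-change -1.0, 95% interval -1.28 to -0.72). Its CAF-vec samples were almost equal. *Idua* overlaps *Dgkq* on the opposite strand, which reached 527% of the *Idua* value, with 31.8 and 25.2 CPM in CAF-vec and 21.9, 20.3 and 19.0 CPM in CAF-200. *Ids*, which acts on the same chains a step earlier, was in contrast 33.3 and 51.1 CPM in CAF-vec and 54.1, 56.6 and 56.1 CPM in CAF-200 (log2 fold-change 0.43, and 0.12 without CAF-vec 1). *Sgsh*, a heparan sulfatase, was 15.1 and 18.6 CPM against 14.4, 14.4 and 13.9 CPM (log2 fold-change -0.23, and -0.08 without CAF-vec 2).

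*Gaa*, the acid alpha-glucosidase that breaks down glycogen, was 231.1 and 214.9 CPM in CAF-vec and 130.4, 121.8 and 121.3 CPM in CAF-200 (log2 fold-change -0.84, 95% interval -1.06 to -0.62). *Man2b1*, an alpha-mannosidase, was 51.2 and 43.4 CPM against 31.7, 33.6 and 31.9 CPM (log2 fold-change -0.53), while the beta-mannosidase *Manba* overlapped between groups at 5.73 and 4.93 CPM against 5.28, 4.98 and 4.35 CPM. For the remaining genes of this role the CAF-200 samples were close together and under the lower CAF-vec sample. *Hexa*, a subunit of beta-hexosaminidase, was 128.0 and 167.2 CPM against 106.1, 104.1 and 103.1 CPM (log2 fold-change -0.48, and -0.29 without CAF-vec 2). *Gla*, the alpha-galactosidase, had a log2 fold-change of -0.38 (-0.23 without CAF-vec 1), and *Gusb*, the beta-glucuronidase, of -0.24 (-0.10 without CAF-vec 1).

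All 6 genes of lipid handling had a log2 fold-change below 0 (median -0.51), beside 58.3% of all genes tested. In 5 of them all CAF-200 values lay under both CAF-vec values, beside 37.3% of all genes. Beside *Psap*, the cholesterol exporter *Npc1* was 35.6 and 40.9 CPM in CAF-vec and 22.6, 23.5 and 23.2 CPM in CAF-200 (log2 fold-change -0.71, 95% interval -0.95 to -0.47). *Npc1* overlaps *Rmc1* on the opposite strand, which reached 125% of its value and was 31.9 and 39.9 CPM in CAF-vec and 28.3, 27.8 and 27.4 CPM in CAF-200. *Npc2*, the soluble protein that hands cholesterol to NPC1, was 195.5 and 150.7 CPM against 141.0, 124.2 and 124.8 CPM (log2 fold-change -0.40, and -0.21 without CAF-vec 1). The acid ceramidase gene *Asah1* was 128.8 and 117.4 CPM against 89.0, 88.0 and 86.1 CPM (log2 fold-change -0.49), and the acid sphingomyelinase gene *Smpd1* was 53.4 and 50.9 CPM against 39.8, 35.3 and 32.9 CPM (log2 fold-change -0.53). *Lipa*, the acid lipase, overlapped, at 47.5 and 62.0 CPM in CAF-vec and 48.7, 47.2 and 47.7 CPM in CAF-200.

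Among the 7 membrane proteins, 6 had a log2 fold-change below 0 (median -0.32), beside 58.3% of all genes tested. None was called at the adjusted *p* of 0.01. *Cd63*, a tetraspanin of late endosomes and exosomes, was 4299 and 2235 CPM in CAF-vec and 1889, 1834 and 1837 CPM in CAF-200. The size of its difference rested on 1 sample, since the log2 fold-change was -0.74 with all samples, -0.27 without CAF-vec 1 and -1.21 without CAF-vec 2. *Lamp1*, the main glycoprotein of the lysosomal membrane, was 1055 and 1259 CPM against 869.1, 839.5 and 848.2 CPM (log2 fold-change -0.44), and *Lamp2*, which also acts in chaperone-mediated autophagy, was 255.2 and 343.7 CPM against 236.1, 244.9 and 229.0 CPM (log2 fold-change -0.32, and -0.11 without CAF-vec 2). *Mcoln1*, a calcium channel of the lysosome, and *Scarb2*, the receptor that carries glucocerebrosidase there, had log2 fold-changes of -0.32 and -0.25 (-0.15 for *Scarb2* without CAF-vec 2) and did not overlap between groups. *Cd68*, widely used as a macrophage marker, was low and overlapped, at 2.25 and 5.01 CPM in CAF-vec and 2.39, 3.31 and 3.54 CPM in CAF-200. *Cln3*, a membrane protein lost in a form of Batten disease, was 1.62 and 4.56 CPM in CAF-vec and 5.36, 5.63 and 6.45 CPM in CAF-200, so that CAF-200 was above both CAF-vec samples while the latter differed by 1.25 on the log2 scale. Its log2 fold-change was 0.94, and 0.31 without CAF-vec 1. *Cln3* overlaps *Apobr* on the opposite strand, which reached 357% of its value.

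**Figure D3:**
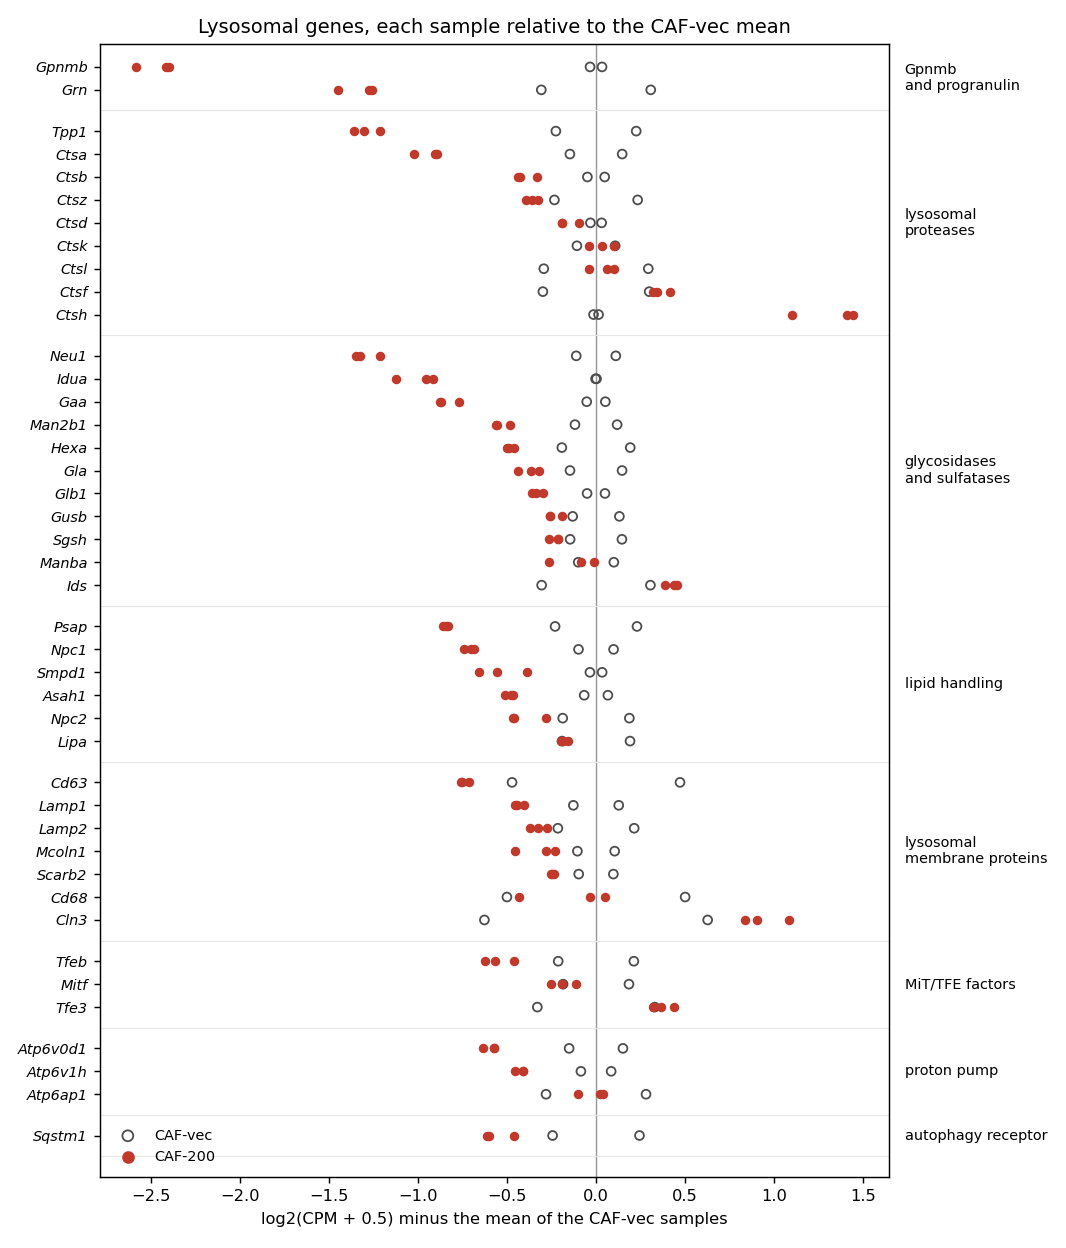
Value of each sample on log2(CPM + 0.5) relative to the mean of the CAF-vec samples (x axis) for the 42 genes, with CAF-vec as open and CAF-200 as filled circles. CAF-200 samples lie within 0.3 of each other for 40 of 42 genes. At a different cut-off, the CAF-vec samples lie over 0.5 apart for 9 (21.4%), beside 24.8% of all genes tested.

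None of the 3 MiT/TFE factors was called. *Tfeb* was 8.69 and 6.34 CPM in CAF-vec and 5.25, 4.85 and 4.65 CPM in CAF-200 (log2 fold-change -0.55, and -0.34 without CAF-vec 1), with no overlap. *Tfe3* was 30.7 and 48.8 CPM against 52.7, 50.1 and 48.4 CPM (log2 fold-change 0.38, and 0.05 without CAF-vec 1), and *Mitf* was 7.35 and 9.64 CPM against 7.32, 6.98 and 7.75 CPM (log2 fold-change -0.19, -0.37 without CAF-vec 1 and -0.0004 without CAF-vec 2), both with overlap. Of the proton pump genes, *Atp6v0d1* of the membrane sector was 141.9 and 175.1 CPM in CAF-vec and 101.3, 105.6 and 105.8 CPM in CAF-200 (log2 fold-change -0.59). *Atp6v1h* of the cytosolic sector was 171.4 and 152.3 CPM against 121.3, 117.6 and 121.4 CPM (log2 fold-change -0.43), and the accessory subunit *Atp6ap1* overlapped, at 185.4 and 273.9 CPM against 209.9, 229.2 and 231.4 CPM. *Sqstm1*, the autophagy receptor p62, was 774.1 and 551.7 CPM in CAF-vec and 473.9, 427.7 and 429.8 CPM in CAF-200 (log2 fold-change -0.56, and -0.32 without CAF-vec 1).

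TFEB, TFE3 and MITF bind the E-box CACGTG, most strongly within the palindrome TCACGTGA, so the promoters of the 42 genes were searched for these letters on both strands, from 250 bases before to 50 bases after the annotated start. The RefSeq table (GRCm38.p6) gave 45 promoters for 37 of the 42 genes, and *Asah1*, *Atp6v1h*, *Ctsb*, *Ctsh* and *Npc1* had none there. CACGTG was in 12 member promoters (26.7%), each of a different gene, and in 7.15% of all 32851 promoters of the table. That table was not limited to genes that reached the level for testing, as all 42 did, so the shares are of unlike sets. TCACGTGA, which holds CACGTG, was in 6 (13.3%) and in 0.974% of all promoters, and the 7-base form TCACGTG in 10 (22.2%) and 3.77%. The M-box core TCATGTG, also bound by MITF, was in 5 (11.1%) and 3.77%. The 12 genes were *Atp6v0d1*, *Cln3*, *Ctsa*, *Ctsd*, *Ctsf*, *Ctsl*, *Gaa*, *Gla*, *Glb1*, *Lamp1*, *Mcoln1* and *Sgsh*, and CACGTG was not found in the windows of *Gpnmb* and *Grn*. The windows below are shown because they carry the motif in genes called lower (*Ctsa*, *Gaa*) and not called (*Ctsd* and *Cln3*, with log2 fold-changes of -0.16 and 0.94), and in *Lamp1*, which holds 4 copies. Capitals mark the E-box, extended to TCACGTGA where that is present.
Ctsa (chr2:164833749-164833778, plus strand): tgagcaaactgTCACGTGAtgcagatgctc
Ctsa (chr2:164833766-164833795, plus strand): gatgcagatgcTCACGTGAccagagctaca
Gaa (chr11:119267811-119267840, plus strand): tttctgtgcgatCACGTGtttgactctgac
Ctsd (chr7:142387908-142387937, minus strand): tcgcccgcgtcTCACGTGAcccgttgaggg
Cln3 (chr7:126583340-126583369, minus strand): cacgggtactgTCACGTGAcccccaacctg
Lamp1 (chr8:13159088-13159117, plus strand): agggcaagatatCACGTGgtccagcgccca
Lamp1 (chr8:13159134-13159163, plus strand): acgtgaccacatCACGTGcggaacggagcc
In *Ctsa* the motifs began 12 bases before and at base 6 after the start, and in *Gaa*, *Ctsd* and *Cln3* 140, 98 and 121 bases before it. A further CACGTG, not shown, began 245 bases before the start in *Ctsd* and 149 bases before it in *Cln3*. The median log2 fold-change was -0.33 for the 12 genes with CACGTG and -0.40 for the 25 without, and the calls among the 12 were *Ctsa* and *Gaa*, both lower.

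Some of these differences turned on the spread between the CAF-vec samples. Over the 42 genes, the CAF-vec samples differed by a median of 0.29 on the log2 scale in either direction, with 24 genes higher in CAF-vec 1 and 18 lower, and 9 genes (21.4%) differed by over 0.5, beside 24.8% of all genes tested. Leaving out 1 CAF-vec sample moved the log2 fold-change by over 1.5 times, or turned its sign, in 22 of the 42 genes. Under 13 alternatives, which included each sample left out in turn and other scalings, 32 genes stayed below 0 and 5 stayed above. The other 5, *Ctsk*, *Ctsl*, *Lipa*, *Cd68* and *Atp6ap1*, changed sign in at least 1 of them. Scaling each sample to its own median moved the median of all genes from -0.09 to 0.00 and that of the 42 genes to -0.29. Added up, the 42 genes made 14300 and 10900 CPM in CAF-vec and 8300, 8140 and 8010 CPM in CAF-200. Without *Psap* and *Cd63*, which made most of the gap between the CAF-vec samples, the other 40 genes made 6980 and 6480 CPM against 4960, 4890 and 4740 CPM.

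Levels of the 42 genes were ranked per length, as CPM per kb of annotated exon. *Psap* (952 CPM per kb in CAF-vec and 523 in CAF-200), *Cd63* (887 and 503) and *Lamp1* (432 and 319) held the first 3 ranks in both groups. *Grn* went from rank 7 with 131 CPM per kb to rank 11 with 51.1, and *Gpnmb* from rank 19 with 30.8 to rank 28 with 5.52. *Ctsh* moved up from rank 33 with 3.52 CPM per kb to rank 23 with 8.99. The lowest levels in CAF-vec were those of *Cln3* at 0.535 and *Ctsk* at 0.598 CPM per kb.

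**Figure D4:**
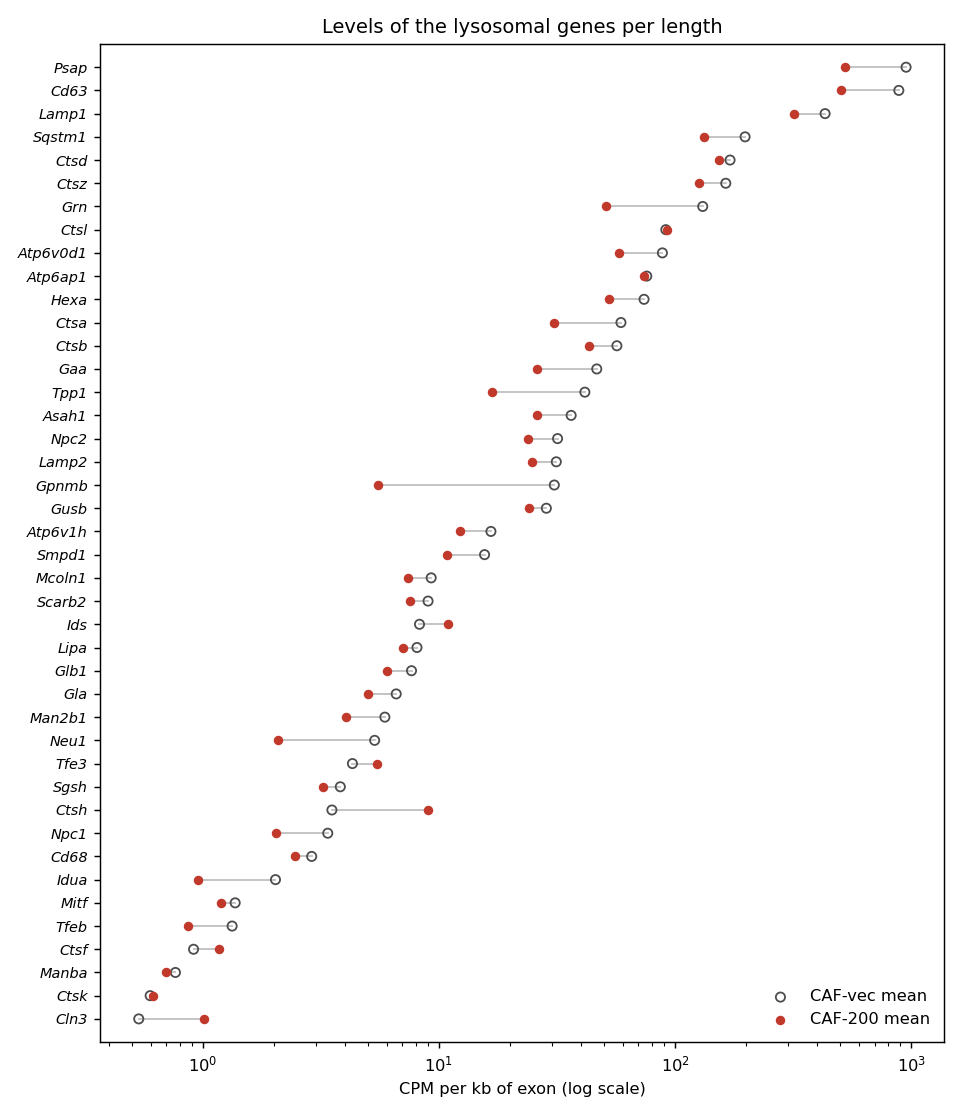
Mean level of each of the 42 genes in CPM per kb of exon (x axis, log scale) in CAF-vec (open circles, n = 2) and CAF-200 (filled circles, n = 3), in the order of CAF-vec. The levels run from 952 CPM per kb for *Psap* to 0.535 for *Cln3* in CAF-vec, and the longest lines are those of *Gpnmb*, from 30.8 to 5.52, and *Grn*, *Neu1*, *Tpp1* and *Ctsh*.

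Other genes of the organelle, from lists that hold none of the 42, were set beside them. These lists too were chosen with earlier results of these data known. Their counts and shares are a description, and nothing is read from them. Over 6 such lists with 174 genes, of which 159 were tested, 27 fell and 1 rose at an adjusted *p* under 0.01, that is 17.0% fell, beside 5.57% lower and 4.45% higher over all genes tested, and the median log2 fold-change was -0.34. In the list of other lysosomal hydrolases, 7 of 34 tested genes fell, 1 rose and 26 did not pass, with a median of -0.33. *Arsa*, the sulfatase that acts on sulfatide, was 76.6 and 76.3 CPM in CAF-vec and 36.6, 38.4 and 36.7 CPM in CAF-200 and fell by 1.03 (adjusted *p* = 0.00252, limma). *Plbd2* was 198.8 and 157.4 CPM against 93.2, 93.6 and 81.1 CPM and fell by 0.99, also on the log2 scale (adjusted *p* = 0.00698, limma). *Ctsc*, an aminopeptidase of the cathepsin family as *Ctsh* is, rose, from 2.13 and 2.42 CPM in CAF-vec to 6.4, 6.04 and 6.59 CPM in CAF-200 (limma, log2 fold-change 1.30 with an adjusted *p* of 0.00284).

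Of the other proton pump subunits, 15 of 22 were tested, and 5 fell, 0 rose and 10 did not pass, with a median of -0.49. Here and for nutrient sensing, the shares over all genes tested were 5.57% lower and 4.45% higher. *Atp6v0b*, a subunit of the membrane sector, was 311.3 and 252.2 CPM in CAF-vec and 126.8, 123.6 and 115.4 CPM in CAF-200 and fell by 1.20 (adjusted *p* = 0.00343, limma). *Atp6v1b2* fell by 0.90 (adjusted *p* = 0.00466), *Atp6v1a* by 0.87 (adjusted *p* = 0.00642) and *Atp6ap2* by 0.82 on the log2 scale (adjusted *p* = 0.00936, all limma). Of 25 genes of nutrient sensing at the lysosome, 4 fell and 0 rose (median -0.46). Of these, *Flcn* and its partners *Fnip2* and *Fnip1* form the folliculin complex, which acts on the Rag GTPases that hold TFEB and TFE3 in the cytoplasm. *Flcn* was 40.5 and 47.1 CPM in CAF-vec and 22.8, 20.5 and 20.9 CPM in CAF-200 and fell by 1.01 (adjusted *p* = 0.00377), *Fnip2* fell by 1.07 (adjusted *p* = 0.00284), *Fnip1* by 0.52 (adjusted *p* = 0.00985) and the Rag GTPase gene *Rragc* by 0.69 on the log2 scale (adjusted *p* = 0.00482, all limma).

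Of 25 genes of sorting to the lysosome, 5 fell and 0 rose (median -0.41). For this list and those that follow, the shares over all genes tested were 5.57% lower and 4.45% higher. Beside *Sort1*, *Gga2*, an adaptor that sorts receptors at the Golgi, fell by 0.75 (adjusted *p* = 0.00616), *Igf2r*, a mannose 6-phosphate receptor, by 0.63 (adjusted *p* = 0.00776) and *Gnptg*, a subunit of the enzyme that makes the mannose 6-phosphate tag, by 0.57 on the log2 scale (adjusted *p* = 0.0089, all limma). The smaller mannose 6-phosphate receptor gene *M6pr*, named after its values were seen, was 109.5 and 114.2 CPM in CAF-vec and 154.1, 151.5 and 160.3 CPM in CAF-200 (limma, log2 fold-change 0.47 with an adjusted *p* of 0.0124). In the list of other membrane proteins, 3 of 28 tested genes fell and 0 rose (median -0.26), namely the 2-pore channel genes *Tpcn2* (fell by 1.10, adjusted *p* = 0.00377) and *Tpcn1* (fell by 0.86, adjusted *p* = 0.00343) and the lysophospholipid exporter gene *Spns1* (fell by 0.85, adjusted *p* = 0.00569, all on the log2 scale and by limma). Of 32 autophagy genes tested, 3 fell and 0 rose (median -0.26), namely *Calcoco1* (fell by 0.95, adjusted *p* = 0.00343), *Rb1cc1* (fell by 0.89, adjusted *p* = 0.00877) and *Atg9a* (fell by 0.60, adjusted *p* = 0.00936, all on the log2 scale and by limma). Of 9 pigment genes, several of them MITF targets in melanocytes, 2 were tested and 0 were called. *Mlana* was 2.72 and 1.07 CPM in CAF-vec and 0.121, 0.232 and 0.0824 CPM in CAF-200 (limma, log2 fold-change -1.81 with an adjusted *p* of 0.0131), *Pmel* was 1.04 to 1.32 CPM in the group means, and *Dct*, *Tyrp1* and *Sox10* were listed at 0 in every sample.

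At an unadjusted *p* under 0.05 (limma), 19 of the other hydrolases, 14 of the other membrane proteins, 11 of the other proton pump subunits, 14 of the nutrient sensing genes, 17 of the sorting genes and 14 of the autophagy genes were lower, and 3, 1, 0, 2, 1 and 0 were higher, beside 27.6% of all genes lower and 17.3% higher. Without any 1 of the CAF-200 samples, the count called lower at an adjusted *p* under 0.01 was 0 in each of these 6 lists and also 0 over all genes. Without CAF-vec 2 it was between 11 and 18 in each list, with 31.3% of all genes lower, and without CAF-vec 1 between 6 and 15, with 16.6% of all genes lower.

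**Figure D5:**
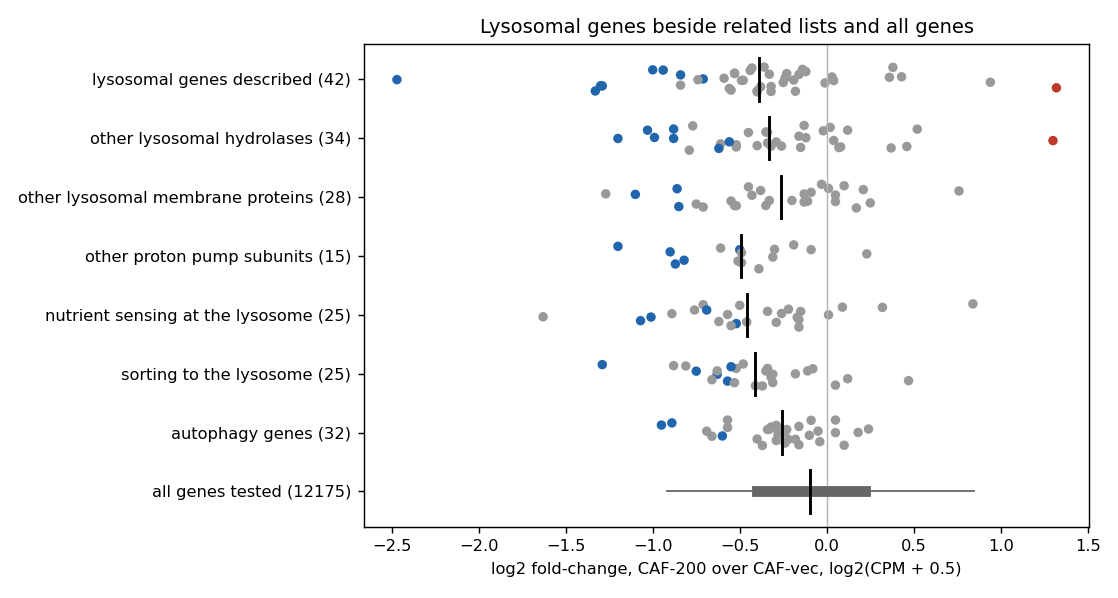
Log2 fold-changes (CAF-200 over CAF-vec on log2(CPM + 0.5), x axis) of the 42 genes and of the tested genes of 6 related lists, 1 point a gene, with medians as black lines, genes called lower in blue and higher in red. The bar for all 12175 genes tested spans the middle 50% and its line the middle 90% of genes, and every list has a median between -0.49 and -0.26, beside -0.09 for all genes.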

How the data were processed

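RNA of 2 CAF-vec and 3 CAF-200 samples was sequenced as stranded, paired-end mRNA libraries. The authors deposited a table of CPM values, named for TMM normalization and indexed by Ensembl gene. The submitters' processing notes name FastQC, cutadapt, Trimmomatic, STAR, RSEM and edgeR and the builds GRCm38 and mm10, and whether counting used strand is not given in the sources used here. Columns summed to between 999956 and 1000111 CPM. The values did not resolve into whole reads, so no count test was run and the depth, and with it the precision of single values, is unknown. All 5 sample columns were used and 0 others were present.

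Values were compared on log2(CPM + 0.5), which understates changes of low genes, with limma 3.58.1 in R 4.3.3 (variance trend, no replicate block) over the 12175 genes that reached 0.5 CPM in 2 or more samples, and *p* values were adjusted over all of them by the method of Benjamini and Hochberg. The threshold for a call was an adjusted *p* of 0.01, the false discovery rate the study used. Of the 42 genes, 12 overlap another gene of the table on the opposite strand and 2 on the same strand. Names, coordinates, exon lengths and 3′-UTRs came from GENCODE M21 (GRCm38), which named 21795 of 21835 genes, and miRNA and promoter sequences from RefSeq tables (GRCm38.p6). Tables and figures were made in Python 3.11.15 with pandas 2.3.3, numpy 2.4.6 and matplotlib 3.10.9.

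The 42 genes and the other lists were chosen with earlier results of these data known. Named are all 42 genes, the called genes of each other list with the 4 largest falls and 4 largest rises, *Zeb1* and *Zeb2* as a check of the labels, and defining markers of other cell types. Some genes that this rule names are not reported here. *Zeb2* was 46.2 and 29.8 CPM in CAF-vec and 31.9, 31.8 and 31.1 CPM in CAF-200 (adjusted *p* = 0.374, limma). Alternatives were quantile normalization, centring of each sample on its median, a pseudocount of 1 or 0.1, no filter, a filter of 1 CPM in all samples, a fit without the variance trend, an adjusted *p* under 0.05, each sample left out, and the replicate number as a block.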

Additional observations from a re-analysis of the deposited data

How the results depend on the processing

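The median of the 42 genes was below 0 under every alternative run, while 5 of the genes changed sign in at least 1 alternative. Counts of calls were less stable. Over all genes, 678 lower and 542 higher calls became 376 and 347 with no filter on low values, and 2265 and 1446 at an adjusted *p* under 0.05. At that threshold 19 of the 42 genes were lower, as were 12 other hydrolases (2 higher), 12 other membrane proteins (1 higher), 9 other pump subunits, 11 nutrient sensing genes, 13 sorting genes (1 higher), 8 autophagy genes and 1 pigment gene, and 1 endothelial marker was higher. With no filter, 4 other hydrolases, 2 pump subunits, 2 sorting genes and 1 autophagy gene were lower, beside 376 of all genes. With no variance trend 3 pump subunits, 2 sorting genes and 1 autophagy gene were lower, and with quantile normalization or median centring 3 sorting genes were (with centring 1 was higher). Quantile normalization and centring moved medians to -0.29 and -0.29 for the 42 genes, -0.23 and -0.23 for other hydrolases, -0.16 and -0.16 for other membrane proteins, -0.35 and -0.36 for nutrient sensing and -0.16 and -0.17 for autophagy genes. The nutrient sensing median was -0.34 with at least 1 CPM in every sample. Counting promoters with the 8-base palindrome in place of CACGTG left 6. Counts with any annotated 3′-UTR remained at 7 of 42.

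The labels give CAF-vec and CAF-200 the replicate numbers 1 and 2 in common. After each group's mean was taken off, samples with a shared number correlated across genes at 0.25 for number 1 and 0.13 for number 2, and with 2 shared numbers the samples share only a number. With the replicate block, 70 genes were lower and 101 higher over all genes, 1 of the 42 was lower (*Gpnmb*) and 1 higher (*Ctsh*), and 0 genes of the 6 related lists were lower or, among other hydrolases, higher. At an unadjusted *p* under 0.05 in this fit (limma), 17 of the 42 genes and 5 to 12 genes of each related list were lower, beside 2480 (20.4%) of all genes.

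Leaving out each sample in turn gave 0 to 3766 lower and 0 to 2329 higher over all genes, and 0 to 25 and 0 to 4 among the 42. The ranges were 0 to 14 and 0 to 3 for other hydrolases, 0 to 15 and 0 to 3 for other membrane proteins, 0 to 11 and 0 to 1 for pump subunits, 0 to 14 and 0 to 3 for nutrient sensing, 0 to 18 and 0 to 1 for sorting, and 0 to 17 and 0 to 2 for autophagy genes. They were 0 to 2 and 0 to 1 for macrophage, 0 to 1 lower for epithelial, 0 to 1 higher for endothelial, and 0 to 4 and 0 to 6 for fibroblast markers, and 0 to 1 lower for *Zeb1* and *Zeb2*. Medians ran from -0.44 to -0.36 for the 42 genes, -0.33 to -0.27 for other hydrolases, -0.34 to -0.24 for other membrane proteins, -0.64 to -0.40 for pump subunits, -0.54 to -0.28 for sorting, -0.32 to -0.19 for autophagy genes, -0.52 to -0.32 for nutrient sensing and -0.0375 to 0.472 for fibroblast markers.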
